A study of Mus musculus with 12 samples.

Results

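The 93 genes described here are the nuclear genes of the mitochondrial respiratory chain, taken by name from the 24421 rows of the count tables. Every row was taken whose symbol begins with Nduf, Uqcr or Atp5, matches Cox followed by a digit from 4 to 8, or is Sdha, Sdhb, Sdhc, Sdhd or Cyc1. No row carried the -ps suffix of a pseudogene, so none was dropped. By symbol, 38 genes belong to complex I, 7 to its assembly factors (Ndufaf), 4 to complex II, 9 to complex III, 18 to complex IV and 17 to complex V. RNA-seq was performed on whole liver and whole lung of newborn mice, each collected within the hour of birth. Each of 4 groups held 3 libraries: wild-type (WT) liver, null liver, WT lung and null lung. Null pups were homozygous for the knockout allele of Man1a2, an alpha-mannosidase of the Golgi that trims N-glycans, in every cell of the body, and came from matings of heterozygous mice. WT pups carried no such allele. No agent was given to either genotype. The libraries are whole tissue, so fewer cells of a type and less RNA per cell cannot be told apart.

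The respiratory chain sits in the inner mitochondrial membrane. Complexes I and II feed electrons from NADH and succinate to ubiquinone, complex III passes them to cytochrome c, and complex IV hands them to oxygen, while complex V (ATP synthase) uses the proton gradient to make ATP. Most subunits are encoded in the nucleus, and a few complex IV subunits exist as pairs of isoforms, of which Cox6a2, Cox7a1 and Cox8b are typical of heart and skeletal muscle and Cox4i2 of lung. Names and prefixes do not always match structure: Ndufa4 was later placed in complex IV, Atp5sl (Dmac2) acts in complex I assembly, and Cox7a2l joins complexes into supercomplexes.

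Libraries held between 26759463 and 42914295 counted reads. Levels are given as CPM, the reads of a gene scaled to a common library total, with totals adjusted by the trimmed mean of M-values (TMM) over all 12 libraries, with the spread as SD over 3 libraries. Man1a2 was at 87.7, 53.3 and 68.7 CPM in WT livers and at 50.6, 49.1 and 50.4 CPM in null livers, and at 105, 76.3 and 109 CPM in WT lungs and 41.5, 50.04 and 51.6 CPM in null lungs, so that no null library reached its WT group. These values count the whole gene, not the altered exon. Of all genes tested, 23.6% had every null liver below every WT liver, and 20.1% did so in lung. In edgeR's quasi-likelihood test the log2 fold change (± SE) of Man1a2 was -0.47 ± 0.17 in liver (Benjamini-Hochberg adjusted p = 0.081). In lung it was -1.01 ± 0.18 (adjusted p = 0.061), and -0.95 ± 0.16 without null lung 1 (adjusted p = 0.0043).

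The library labelled null lung 1 stood apart and went against its label. The 8 lung epithelial markers summed to 331 CPM in it, against 20282 to 27127 CPM in the other 5 lung libraries, while the 16 striated muscle markers summed to 29855 CPM, against 299 to 839 CPM. Sftpc was the largest part of the lung sums, at 25.8 CPM against 12235 to 17482 CPM. All 8 lung markers still stood at 1 CPM or more in it. Foxj1, at 37.8 CPM, lay within the 29.2 to 54.0 CPM of the other lungs. Thyroglobulin (Tg) and parathyroid hormone (Pth), picked after their values were seen, stood at 1952 and 336 CPM there and at most at 3.21 and 0.0569 CPM in any other library. Its Pearson correlation with the other null lungs over 12780 genes was 0.850 and 0.858, while null lungs 2 and 3 correlated at 0.985. In the library labelled null liver 1, the same muscle list summed to 8514 CPM, against 18.8 to 23.7 CPM in the other 5 livers, with the sum of the hepatocyte markers within the range of the other livers. Of these markers Ttr (4044 CPM) and Trf (49518 CPM) were each lowest in that library among the livers. Lung results are therefore given with and without null lung 1, and liver results that rest on null liver 1 likewise.

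In null lung 1 most respiratory chain genes were high along with the muscle markers. The 93 genes took 2.42% of all counts in null lung 1, against 0.886% to 0.996% in the other lungs. Of 90 genes with a mean of at least 1 CPM, 86 were higher in null lung 1 than in all 5 other lung libraries, with a median ratio of 2.27 to their mean. The ratio was highest for Cox6a2, the muscle isoform of subunit VIa, at 46.5, and lowest for Cox4i2, the lung isoform of subunit IV, at 0.189. In null liver 1 the sum over the 93 genes was 15006 CPM, the lowest of the 6 livers, while the muscle isoforms Cox6a2, Cox7a1 and Cox8b were the highest of the livers. The part of muscle RNA in these values was not tested.

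In WT liver the ATP synthase genes stood highest per transcript length. Atp5b, the catalytic beta subunit, led with 1045 CPM per kilobase, followed by Atp5g3, a c-ring subunit, at 771 and Atp5a1, the alpha subunit, at 612. Cox4i1, the common isoform of complex IV subunit IV, stood at 597. In WT lung the order began with Atp5b at 363, Cox4i1 at 324 and Atp5g3 at 290 CPM per kilobase. The median over genes of a complex ran from 12.4 (complex I assembly factors) to 286 (complex V) in WT liver and from 7.45 to 124 in WT lung. Complex III, at 284, was practically level with complex V in WT liver and stood at 101 in WT lung. The assembly factors were thus the least abundant of the 6 groups in both tissues.

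The WT libraries address how the chain differs between the 2 tissues. Respiratory chain transcripts were higher in newborn liver than in newborn lung in every complex. A gene was called where edgeR's quasi-likelihood test gave a Benjamini-Hochberg adjusted p under 0.05 over all genes tested and the change was at least 1.2-fold. Of 90 genes tested, 83 were called higher in liver, which is 92.2% of them, where 37.2% of all 15635 genes tested were called higher, 39.8% lower and 77% in either direction. The median log2 fold change was 1.15 over these genes and -0.04 over all genes. By complex the median was 1.56 for complex III, 1.32 for complex II, 1.24 for complex V, 1.21 for the complex I assembly factors, 1.08 for complex I and 1.01 for complex IV. Summed over all 93 genes, the level was 16716 ± 1082 CPM in WT liver and 7135 ± 283 CPM in WT lung, and the 3 libraries of each tissue did not overlap in any complex.

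**Figure D1:**
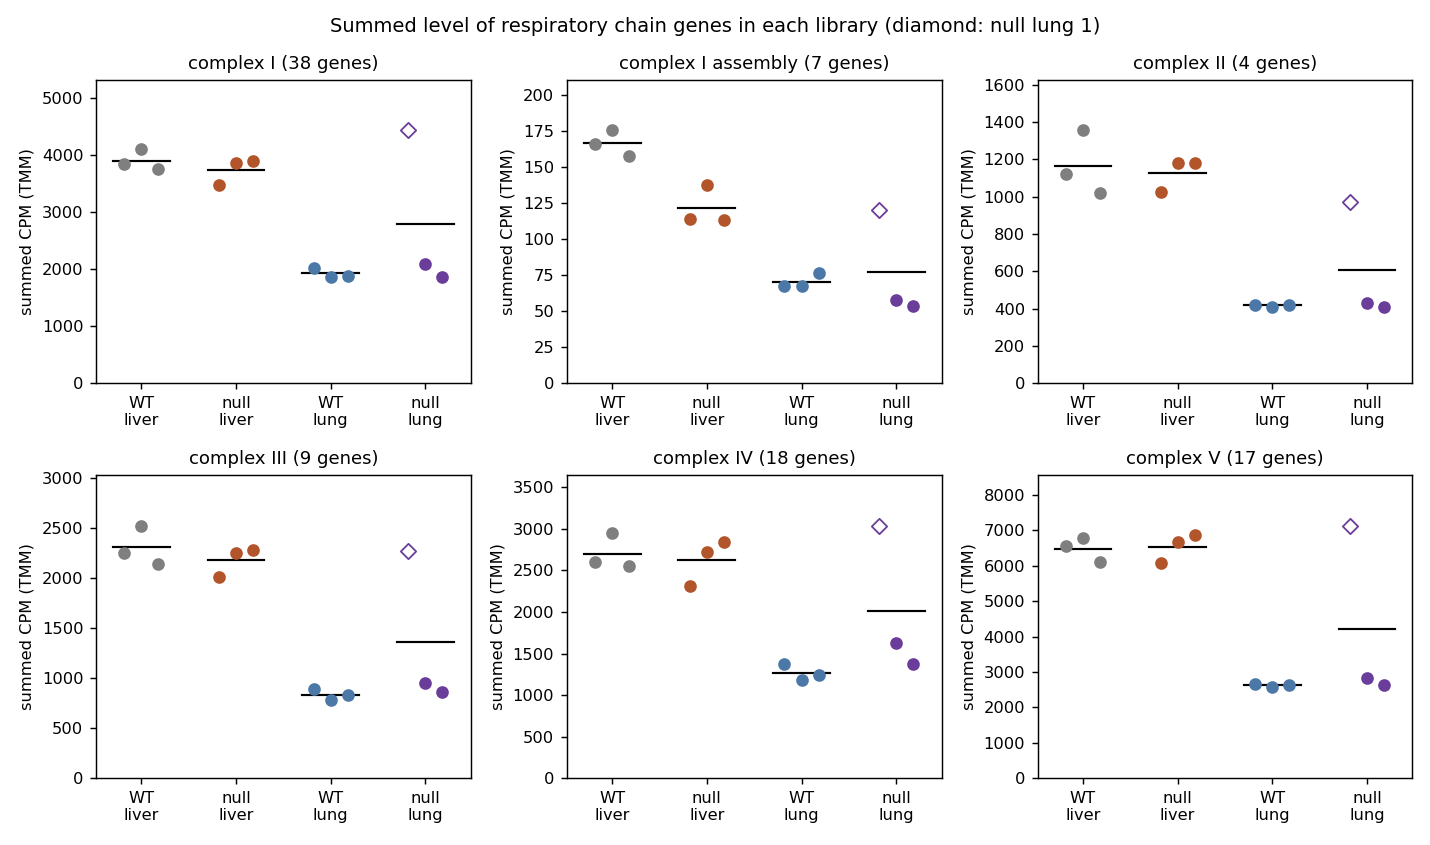
Summed level of the respiratory chain genes in each library, in CPM on TMM-scaled totals, with 1 panel for each complex. Points are libraries, bars are the means of 3 libraries, and the open diamond is null lung 1. For complex I the WT livers lie between 3753 and 4104 CPM, the WT lungs between 1865 and 2026 CPM, and null lung 1 at 4435 CPM.

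The size of this difference depended on the scaling. The 20 most abundant genes took 29.6% to 32.8% of the counts in WT liver and 7.45% to 8.05% in WT lung. As a plain share of counts, the 93 genes made up 1.30% to 1.37% of WT liver and 0.943% to 0.996% of WT lung libraries. On library totals, 55 genes were called higher in liver and 11 lower, with a median of 0.36 where the median of all genes was -0.83. Of all genes, 19.2% were called higher and 64.8% lower on these totals. Under this scaling Cox7a2l, not called with TMM at 0.14 ± 0.15 (log2 fold change ± SE), was called lower in liver at -0.65. A set of 55 genes was called higher in liver in all 22 fits of this comparison, and Cox4i2 lower in all of them.

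Cox7b, a small subunit of complex IV on chromosome X (106015700 to 106022450, GRCm38), had the largest liver excess of these genes. It was at 308, 497 and 276 CPM in WT livers and at 75.5, 74.4 and 81.2 CPM in WT lungs. The log2 fold change was 2.26 ± 0.21 (adjusted p = 8.2e-06). The groups were far apart although WT liver 2 stood well above the other livers. The rank of Cox7b rested on that library. Without WT liver 2 its value was 1.95. The lowest values of Ndufaf4 and Uqcrq over the fits without 1 library were 2.08 and 2.04. With the length trend removed, the largest value was 1.99 in complex IV and 2.41 among the complex I assembly factors.

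Ndufaf4, an assembly factor of complex I on chromosome 4 (24898083 to 24905001), was at 71.6, 68.0 and 64.0 CPM in WT livers and at 12.1, 14.9 and 17.9 CPM in WT lungs, a log2 fold change of 2.22 ± 0.14 (adjusted p = 4.3e-07). Uqcrq, a small subunit of complex III, was at 220, 242 and 242 CPM in WT livers and 62.9, 50.03 and 53.7 CPM in WT lungs (2.11 ± 0.12, adjusted p = 2.2e-07). Sdhd, a membrane anchor of complex II, was at 395, 497 and 353 CPM against 105, 101 and 105 CPM (2.03 ± 0.14, adjusted p = 1.2e-06). Uqcrfs1, the Rieske iron-sulfur protein of complex III, was at 366, 348 and 314 CPM against 103, 91.9 and 94.4 CPM (1.86 ± 0.11, adjusted p = 3.7e-07). In each of these genes every liver library lay above every lung library, as in 38.1% of all genes tested.

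All 19 genes in a list of core subunits were called higher in liver, with a median log2 fold change of 1.33. Atp5b was at 2079, 2026 and 1901 CPM in WT livers and 689, 688 and 712 CPM in WT lungs (1.56 ± 0.17). Complex II members other than Sdhd differed alike, with Sdha, the flavoprotein, at 1.30 ± 0.14, Sdhb, the iron-sulfur protein, at 1.33 ± 0.11 and Sdhc, the other anchor, at 1.26 ± 0.11. Among the complex IV members of the list Cox4i1 differed least, at 0.91 ± 0.14, and was not called on library totals.

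The exceptions were few. Cox4i2, Cox8b and Cox6a2 were called lower in liver. Cox7a2l, Ndufa4l2 (a paralog of Ndufa4 known for its rise in hypoxia), Ndufaf3 (an assembly factor) and Ndufc2 were not called, at 0.14 ± 0.15, -0.07 ± 0.34, -0.19 ± 0.12 and 0.25 ± 0.09. Ndufc2 was picked for mention after its values were seen.

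**Figure D2:**
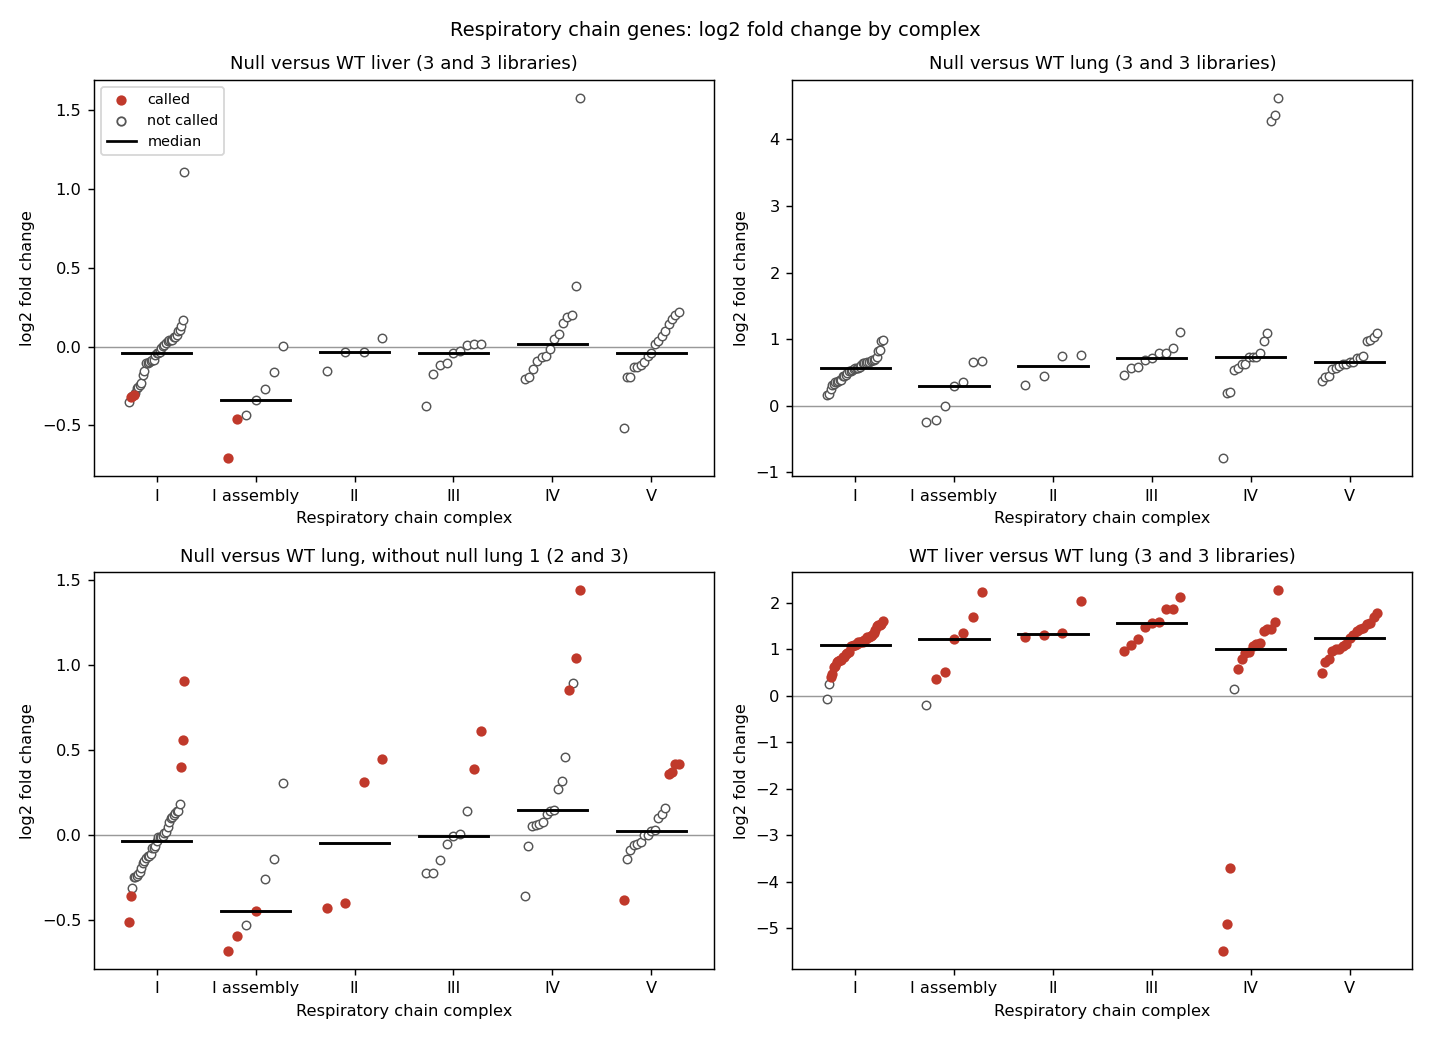
Log2 fold change of each tested gene by complex, in 4 panels for null versus WT liver, null versus WT lung with and without null lung 1, and WT liver versus WT lung. Filled points passed the test, open points did not, and bars are medians. In the tissue panel 83 genes lie above 0 as called, and 3 complex IV isoforms lie between -3.71 and -5.49.

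The 3 complex IV isoforms that were lower in liver were each a minor partner of a ubiquitous form. Cox4i2 was at 0.851, 0.811 and 0.652 CPM in WT livers and at 35.9, 39.4 and 30.9 CPM in WT lungs, a log2 fold change of -5.49 ± 0.17 (adjusted p = 7.6e-09). Per transcript length it made up 11.9% to 15.5% of Cox4i1 and Cox4i2 together in WT lungs and 0.152% to 0.214% in WT livers. Cox6a2 was at 0.177, 0.243 and 0.171 CPM in WT livers and 2.26, 2.5 and 3.23 CPM in WT lungs (-3.71 ± 0.30), that is 1.504% to 2.35% of its pair in lung. Cox8b had 1, 0 and 1 counts in WT livers and 39, 27 and 50 counts in WT lungs, which gives a ratio of 34.6 with an exact 95% interval of 9.36 to 289. That interval covers counting error only. Cox7a1, the muscle form of subunit VIIa, was instead slightly higher in liver, at 2.31, 1.14 and 1.41 CPM against 1.10, 0.638 and 0.807 CPM (0.94 ± 0.33, adjusted p = 0.025). In WT lung the 16 striated muscle markers summed to 299 to 484 CPM, against 18.8 to 23.7 CPM in WT liver. Their part in the levels of Cox6a2 and Cox8b was not tested.

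**Figure D3:**
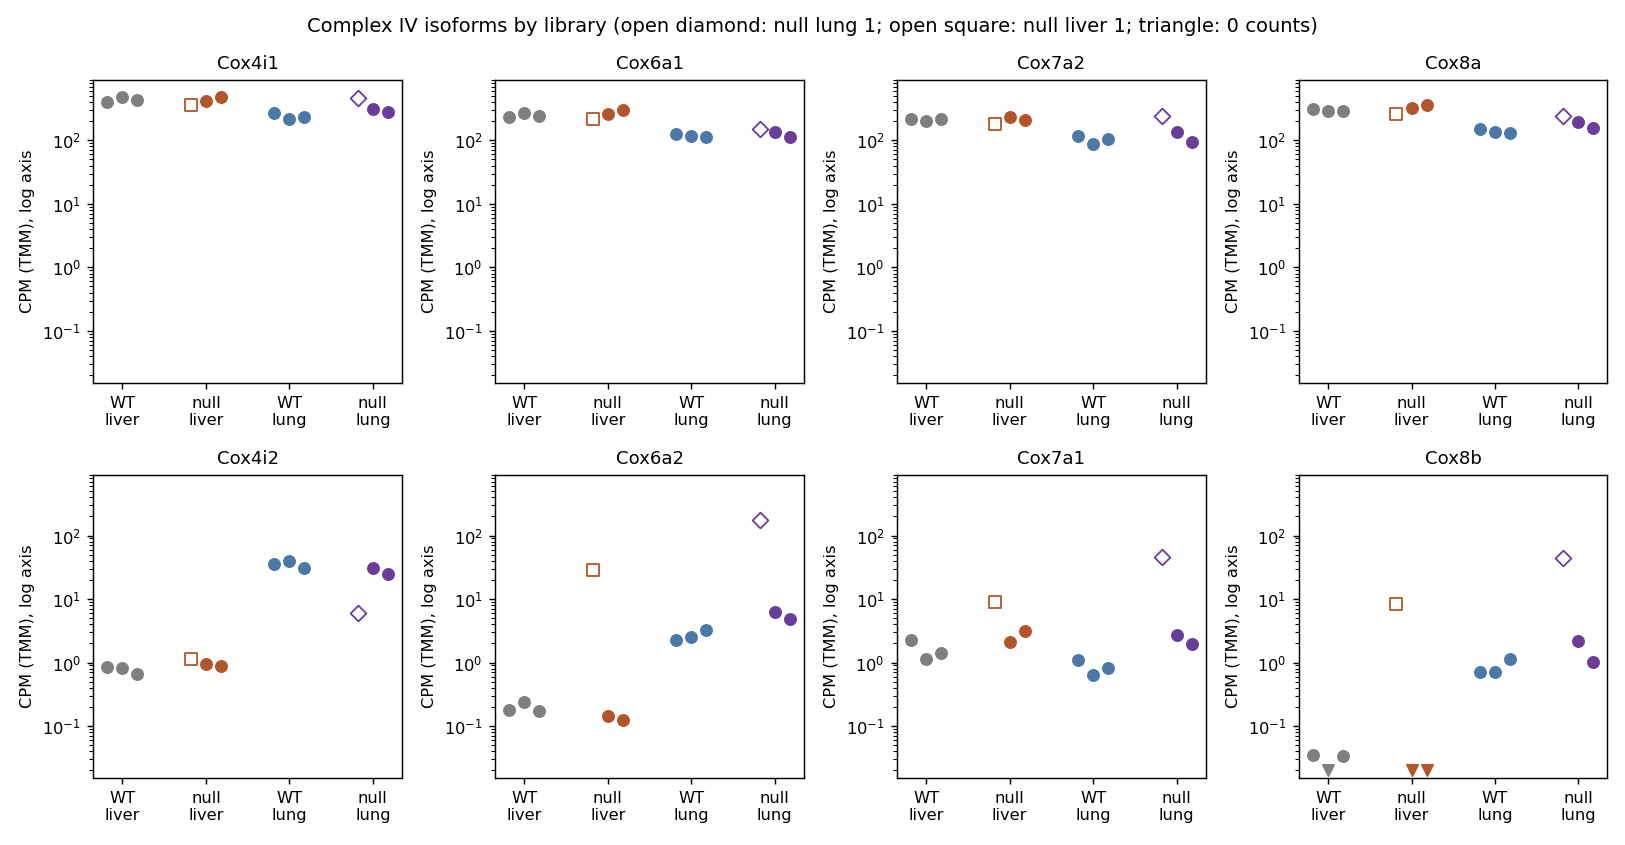
Levels of 4 ubiquitous complex IV subunits (upper row) and their tissue-restricted isoforms (lower row) in each of 12 libraries, in CPM on a log axis. The open diamond is null lung 1, the open square is null liver 1, and triangles at the lower edge are libraries with 0 counts. Cox6a2 reaches 177 CPM in null lung 1 and 29.0 CPM in null liver 1, against at most 6.26 CPM in any other library.

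Several members were at or near 0. Ndufs5, a small subunit of complex I, was listed at 0 in all 12 libraries. Only if reads of the gene were counted does this mean up to 3 counts, or 0.0699 to 0.112 CPM. The globin genes Hbb-bt, Hba-a1 and Hba-a2 were also listed at 0 in all 12 libraries. The erythroid markers, these globins included, still summed to 2063 to 3748 CPM in the livers. Of the 75-base stretches of the Ndufs5 transcript, 32.4% also occur in transcripts of another gene. Whether the zero is a level was not tested. Cox8c had 1 count, in null liver 1, and Cox7b2 had 4 counts, 3 of them in null lung 1. These 3 genes were tested in no comparison, and Cox6a2 and Cox8b were left out of the liver comparison.

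The transcripts of these genes were short, with a median length of 850 bp where the median of the other tested genes was 2760 bp. Among other genes the tissue difference did vary with length. The median log2 fold change of genes up to 500 bp was 0.53, falling to 0.29 for 500 to 1000 bp, 0.21 for 1000 to 2000 bp, -0.02 for 2000 to 4000 bp and -0.36 above 4000 bp. The respiratory chain genes stood above their length class in each range, with medians of 0.94, 1.08, 1.29 and 1.31 in the 4 ranges that hold any. After the length trend was removed from each library, 76 genes were called higher and 4 lower with a median of 0.86, and after GC content and length 74 and 4 with a median of 0.89. Of all genes, 39.8% were called higher and 37.1% lower with length removed, and 39.7% and 37.5% with both removed. GC content differed little, with a median of 51.8% for these genes and 50.6% for the others.

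**Figure D4:**
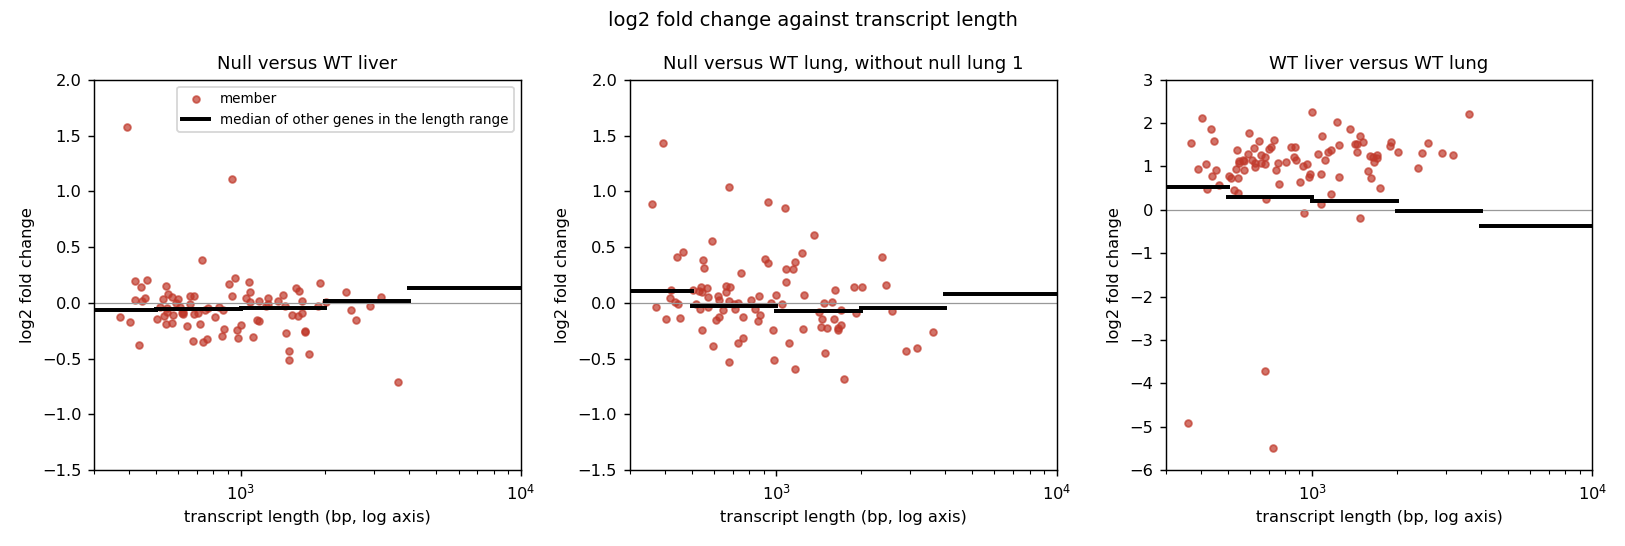
Log2 fold change of each respiratory chain gene (points) against transcript length on a log axis, with the median of all other tested genes in 5 length ranges (black bars), for 3 comparisons. In the tissue panel the black bars fall from 0.53 to -0.36 with length and 85 of the 90 points lie above 0.

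RefSeq promoter windows (250 bases before to 50 after the start, GRCm38.p6) were at hand for 74 of the 93 genes. The letters GCGCANGCG of the NRF1 site, a factor known to drive respiratory chain genes, occurred on either strand in 28.4% of these windows, in 12.2% of the windows of other genes tested between tissues and in 6.47% of all 27025 windows. The ETS core CCGGAAG bound by GABP occurred in 21.6%, 15.9% and 9.12%, the YY1 letters AAGATGGC in 12.2%, 4.14% and 2.88%, the estrogen-related receptor site AAGGTCA in 10.8%, 3.39% and 4.66%, the SP1 letters GGGCGG in 43.2%, 60.9% and 35.9%, and the letters TATAAA in 9.46%, 7.92% and 14.2%. The motifs may overlap each other, and a match is a description only. The windows of these genes had a median GC content of 57.3% and all windows 52.7%.

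The 200 bases before the start are shown for 3 genes with the largest liver excess that had a window (Cox7b, Ndufaf4, Sdhd) and for the muscle isoforms Cox8b and Cox7a1. Capitals mark matches to the NRF1, GABP, YY1, estrogen-related receptor or TATA letters. Cox7b lies at chrX:106015500-106015699 (+), Ndufaf4 at chr4:24897883-24898082 (+), Sdhd at chr9:50603850-50604049 (-), Cox8b at chr7:140900447-140900646 (-) and Cox7a1 at chr7:30183971-30184170 (+).
Cox7b: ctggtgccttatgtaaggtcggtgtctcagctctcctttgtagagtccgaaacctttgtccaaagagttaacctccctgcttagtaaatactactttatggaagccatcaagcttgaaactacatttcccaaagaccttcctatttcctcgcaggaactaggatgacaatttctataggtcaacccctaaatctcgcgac
Ndufaf4: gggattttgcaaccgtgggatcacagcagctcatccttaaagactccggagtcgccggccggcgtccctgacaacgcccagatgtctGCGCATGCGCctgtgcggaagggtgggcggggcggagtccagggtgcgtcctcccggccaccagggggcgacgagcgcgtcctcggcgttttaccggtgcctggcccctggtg
Sdhd: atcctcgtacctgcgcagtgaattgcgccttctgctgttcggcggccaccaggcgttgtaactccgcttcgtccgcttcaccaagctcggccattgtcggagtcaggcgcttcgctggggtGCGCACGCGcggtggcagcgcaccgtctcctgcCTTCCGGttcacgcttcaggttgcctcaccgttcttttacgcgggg
Cox8b: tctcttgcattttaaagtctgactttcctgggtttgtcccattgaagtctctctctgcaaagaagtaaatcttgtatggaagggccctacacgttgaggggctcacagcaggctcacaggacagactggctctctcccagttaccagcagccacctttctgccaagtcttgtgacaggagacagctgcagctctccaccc
Cox7a1: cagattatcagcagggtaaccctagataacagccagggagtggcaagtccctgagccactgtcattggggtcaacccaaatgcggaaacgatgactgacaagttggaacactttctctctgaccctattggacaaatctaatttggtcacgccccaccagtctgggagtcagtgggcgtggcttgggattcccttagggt
Ndufaf4 held the NRF1 letters on both strands, beginning 113 and 112 bases before its start. Sdhd held them 79 bases and the reversed GABP core 46 bases before its start. The stretches of Cox7b, Cox8b and Cox7a1 held none of these letters.

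Null and WT livers were then compared to ask whether loss of Man1a2 went with a change in the chain. Few structural subunits differed, and 2 of 7 assembly factors of complex I fell. Of 88 genes tested, 4 were called and all 4 fell in null liver, which is 4.55% where 26.9% of all 14343 genes tested were called, 13.4% lower and 13.5% higher. The median log2 fold change was -0.04 over these genes and 0.02 over all genes. Summed over the 93 genes, the level was 16716 ± 1082 CPM in WT liver and 16334 ± 1164 CPM in null liver. None of the 19 listed core subunits was called, and their values ran from -0.20 (Cox5a) to 0.18 (Atp5b). Atp5b, for example, was at 2079, 2026 and 1901 CPM in WT livers and 2059, 2280 and 2404 CPM in null livers (0.18 ± 0.11, adjusted p = 0.25), and these groups overlapped.

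Ndufaf4 fell most. Its level was 71.6, 68.0 and 64.0 CPM in WT livers and 36.3, 47.9 and 40.0 CPM in null livers. No null library reached a WT library, and the log2 fold change was -0.71 ± 0.11 (adjusted p = 0.0055). It was called in each of the 6 fits that left out 1 library, with adjusted p from 0.0069 to 0.027, but not in the fit of all 12 libraries (adjusted p = 0.16).

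Ndufaf7, a methyltransferase that acts on a complex I subunit during assembly (chromosome 17, 78937136 to 78948052), was at 20.3, 23.5 and 20.03 CPM in WT livers and 14.2, 16.8 and 15.2 CPM in null livers (-0.46 ± 0.12, adjusted p = 0.028). Ndufs7, a complex I subunit that carries an iron-sulfur cluster and is not in that list (chromosome 10, 80249121 to 80256794), was at 80.8, 72.4 and 83.0 CPM against 64.7, 63.8 and 59.0 CPM (-0.32 ± 0.10, adjusted p = 0.049). Ndufa12, an accessory subunit of complex I (chromosome 10, 94198720 to 94221443), was at 52.4, 62.5 and 57.0 CPM against 44.0, 46.8 and 47.0 CPM (-0.31 ± 0.09, adjusted p = 0.046). All 3 had every null library below every WT library, as did 23.6% of all genes tested, and the calls were narrow. When 1 library was left out, Ndufaf7 and Ndufs7 stayed called in 1 of 6 fits each and Ndufa12 in none.

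By complex, the assembly factors had a median of -0.34, with 2 of 7 called lower and 1 of 7 at a positive value. Their summed level was 166 ± 8.88 CPM in WT and 122 ± 13.7 CPM in null livers, with no overlap of libraries. Ndufaf4 had the most counts of the 7 in every liver library, so this sum leans on a gene already described. The medians of the other groups lay between -0.04 and 0.02, with 2 of 37 complex I genes called lower and none called in complexes II to V. After the length trend was removed, Ndufaf4 and Ndufaf7 were the 2 genes called, and the median of all 88 genes was 0.03.

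The largest positive values in liver belonged to genes with unequal libraries. Cox7a1 was at 2.31, 1.14 and 1.41 CPM in WT livers and 9.003, 2.13 and 3.09 CPM in null livers (1.58 ± 0.58, adjusted p = 0.079). Without null liver 1, the library with muscle markers, its value was 0.67. Cox6a2 was at 29.0 CPM and Cox8b at 8.22 CPM in null liver 1, against at most 0.243 and 0.0355 CPM in the other 5 livers. Ndufa4l2 was at 43.0, 12.4 and 24.6 CPM in WT livers and 17.4, 56.2 and 99.9 CPM in null livers (1.11 ± 0.62, adjusted p = 0.22). Its groups overlapped. Without null liver 1 Ndufa4l2 was called higher, at 1.54 (adjusted p = 0.039). That was the only 1 of 6 fits without 1 library to call it. Its value was 0.46 without null liver 3, and the adjusted p over the 6 fits reached 0.61.

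With all 3 null lungs, no respiratory chain gene was called in lung. This was 0 of 90 genes tested, beside 0.327% of all 15591 genes, with 13 of the 90 at an unadjusted p under 0.05. The median log2 fold change was 0.63 and 87 of 90 values were positive. DESeq2 called 7 of 91 genes higher, or 7.69%, beside 5.69% of all 20021 genes. The fit of all 12 libraries called 9 higher. The median over these genes against the WT lungs was 1.21 in null lung 1, 0.13 in null lung 2 and -0.10 in null lung 3 on the log2 scale.

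Without null lung 1, 14 genes rose and 8 fell in null lung, and the median lay at 0, with 45 values above it and 45 below. The 22 genes called are 24.4% of the 90 tested, where 37% of all 15885 genes were called, 18% higher and 19% lower. The null arm then held 2 libraries. The split moved with the scaling, from 14 higher and 8 lower with TMM to 8 and 13 with upper-quartile factors and 7 and 18 on library totals, where the median of all genes was -0.01, -0.09 and -0.16. On library totals, 11.8% of all genes were called higher and 26.7% lower. A set of 7 genes was called higher and 4 lower in all 7 fits without null lung 1: Cox6a2, Cox7a1, Cox7a2l, Ndufa4l2, Ndufa6, Sdhd and Uqcrfs1 on one side, and Atp5g1, Ndufaf7, Sdha and Sdhc on the other. Leukocyte markers summed to 1262 to 1505 CPM in WT lungs and to 2622 and 2135 CPM in null lungs 2 and 3, and 6 of 9 were called higher, and their part in these results was not tested. Values in the next paragraphs are from the TMM fit without null lung 1, and for the called members described there the level in null lung 1 is given beside them. Of all 15885 genes, 30.1% had both null lungs above every WT lung and 31.5% had both below, so that a lack of overlap was common in this comparison.

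**Figure D5:**
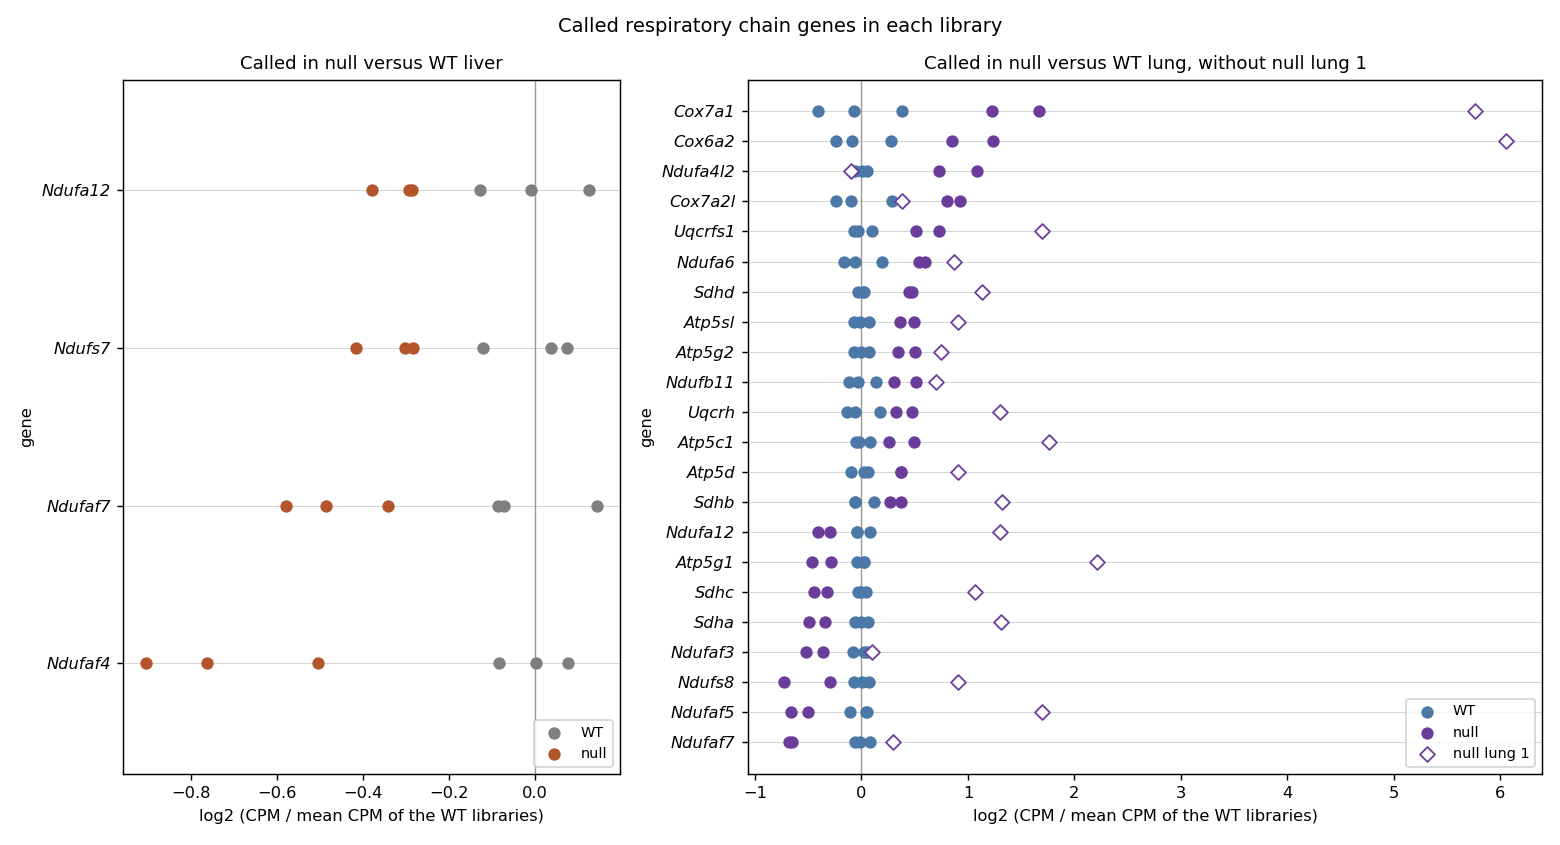
Level of each called gene in each library as log2 of its CPM over the mean CPM of the WT libraries, for the 4 genes called in liver (left) and the 22 called in lung without null lung 1 (right). Circles are WT and null libraries, and open diamonds are null lung 1, which was not in the lung fit. Sdha and Sdhc lie below 0 in null lungs 2 and 3 and above 0 in null lung 1.

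The 4 genes of complex II, the only complex encoded wholly in the nucleus, moved in opposite directions. Sdhd was at 105, 101 and 105 CPM in WT lungs and 141 and 144 CPM in null lungs 2 and 3, with 227 CPM in null lung 1 (0.44 ± 0.09, adjusted p = 0.0079). Sdhb was at 90.7, 79.9 and 80.2 CPM in WT and 108 and 101 CPM in null lungs, with 208 CPM in null lung 1 (0.31 ± 0.10, adjusted p = 0.045). Both rose. Sdha was at 140, 146 and 152 CPM in WT and 115 and 104 CPM in null lungs, with 363 CPM in null lung 1 (-0.43 ± 0.10, adjusted p = 0.014). Sdhc was at 85.5, 81.4 and 82.8 CPM in WT and 66.4 and 61.0 CPM in null lungs, with 174 CPM in null lung 1 (-0.40 ± 0.09, adjusted p = 0.014). Both fell. Sdhb was not called with upper-quartile factors or on library totals. With null lung 1 in the fit, Sdha and Sdhc had positive values, at 0.45 and 0.31, and were not called.

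In complex III, Uqcrfs1 was at 103, 91.9 and 94.4 CPM in WT lungs and 159 and 137 CPM in null lungs 2 and 3, with 313 CPM in null lung 1. It rose by 0.61 ± 0.11 on the log2 scale (adjusted p = 0.0050). On library totals 1 gene of the complex was called higher and 2 lower. The other core members of the complex were not called. Uqcrc2 was at 0.14 ± 0.09, Uqcrc1 at -0.23 ± 0.09 and Cyc1, cytochrome c1, at -0.23 ± 0.09.

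In complex IV, 3 of 16 genes tested rose. Cox7a2l was at 145, 101 and 111 CPM in WT lungs and 226 and 207 CPM in null lungs 2 and 3, with 155 CPM in null lung 1 (0.85 ± 0.16, adjusted p = 0.0059). Its null libraries 2 and 3 stood above every other library of the series. Cox7a1 was at 1.10, 0.638 and 0.807 CPM in WT and 2.70 and 1.99 CPM in null lungs, with 46.0 CPM in null lung 1 (1.44 ± 0.30, adjusted p = 0.0097). Cox6a2 was at 2.26, 2.5 and 3.23 CPM in WT and 6.26 and 4.80 CPM in null lungs, with 177 CPM in null lung 1 (1.04 ± 0.23, adjusted p = 0.012). Striated muscle markers summed to 299, 412 and 484 CPM in WT lungs and to 839 and 676 CPM in null lungs 2 and 3, and 11 of 16 were called higher there. Their part in the values of Cox7a1 and Cox6a2 was not tested. Cox8b was at 0.704, 0.718 and 1.12 CPM in WT and 2.15 and 1.02 CPM in null lungs, with 43.9 CPM in null lung 1 (0.89 ± 0.39, adjusted p = 0.11), and these groups overlapped.

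Cox4i2 did not pass the test, at 35.9, 39.4 and 30.9 CPM in WT and 31.2 and 24.5 CPM in null lungs 2 and 3, with 6.10 CPM in null lung 1 (-0.36 ± 0.15, adjusted p = 0.10). Its partner Cox4i1 was at 0.27 ± 0.12 (adjusted p = 0.11). The share of Cox4i2 in the pair was 11.9% to 15.5% in WT lungs, 9.35% and 8.31% in null lungs 2 and 3, and 1.33% in null lung 1. Cox5a and Cox5b, the other core members of the complex, were at -0.06 ± 0.09 and 0.06 ± 0.10.

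In complex I, Ndufa4l2 was at 29.5, 28.7 and 27.4 CPM in WT lungs and 60.6 and 47.2 CPM in null lungs 2 and 3, with 26.7 CPM in null lung 1 (0.90 ± 0.13, adjusted p = 0.0023). Ndufa6, an accessory subunit, was at 75.2, 63.1 and 58.8 CPM in WT and 99.3 and 95.6 CPM in null lungs, with 120 CPM in null lung 1 (0.55 ± 0.12, adjusted p = 0.011). Both rose. Ndufs8, another iron-sulfur subunit, was at 41.4, 39.6 and 37.6 CPM in WT and 32.2 and 23.9 CPM in null lungs, with 74.2 CPM in null lung 1 (-0.51 ± 0.14, adjusted p = 0.028). It was not called after the GC trend was removed. The 37 complex I genes tested had 3 called higher, 2 lower and a median of -0.04, and on library totals 2 higher and 7 lower.

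Of the 7 complex I assembly factors, 3 fell in null lung and none rose, with a median of -0.45. Ndufaf7 was at 14.6, 15.0 and 16.0 CPM in WT lungs and 9.49 and 9.65 CPM in null lungs 2 and 3, with 18.7 CPM in null lung 1 (-0.68 ± 0.13, adjusted p = 0.0074). Ndufaf5, a hydroxylase of a complex I subunit, was at 5.20, 4.68 and 5.24 CPM in WT and 3.56 and 3.18 CPM in null lungs, with 16.4 CPM in null lung 1 (-0.60 ± 0.18, adjusted p = 0.037). Ndufaf3 was at 10.5, 11.5 and 11.3 CPM in WT and 7.72 and 8.64 CPM in null lungs, with 11.8 CPM in null lung 1 (-0.45 ± 0.15, adjusted p = 0.048). Ndufaf4, the gene that fell most in liver, was at -0.26 ± 0.19 in lung (adjusted p = 0.33). The summed level of the 7 genes was 67.6, 67.5 and 76.6 CPM in WT lungs and 57.8 and 53.4 CPM in null lungs 2 and 3.

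In complex V, 4 of 17 genes rose and 1 fell with TMM, while on library totals none was called higher and 2 lower. The 3 genes of the c ring, which encode the same mature protein, differed. Atp5g1 was at 41.5, 39.6 and 41.6 CPM in WT and 33.6 and 29.7 CPM in null lungs, with 190 CPM in null lung 1 (-0.39 ± 0.11, adjusted p = 0.025). Atp5g2 was at 30.4, 28.9 and 27.7 CPM in WT and 41.2 and 36.9 CPM in null lungs, with 48.6 CPM in null lung 1 (0.41 ± 0.11, adjusted p = 0.021). Atp5g3 was at -0.06 ± 0.11. Atp5g1 and Atp5g2 are uncertain, because 59.6% and 100% of the 75-base stretches of their transcripts also occur in transcripts of other genes, pseudogenes included. Atp5a1, Atp5b and Atp5o were not called, at 0.16 ± 0.09, -0.09 ± 0.09 and -0.06 ± 0.09.

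Across both tissues, Ndufa12 and Ndufaf7 were the 2 genes called in null liver and in null lung without null lung 1, and both were lower in each. Of all genes, 26.9% were called in that liver comparison and 37% in that lung comparison. The share of all genes called in both was not counted. Ndufa12 stood at -0.36 ± 0.11 in lung (adjusted p = 0.038). In null lung 1 it went the other way, with 2331 counts among 26759463 counted reads. The WT lungs, each with more counted reads, had 1409, 961 and 1237 counts of it. Whether the genotype difference itself differed between tissues was tested as an interaction. With all 12 libraries, 0 of 90 genes were called, beside 0.371% of all 16155 genes, with 9 of the 90 at an unadjusted p under 0.05. DESeq2 called 1 of 92 (Ndufa6), or 1.09%, beside 2.99% of all 20414 genes. Without null lung 1, 0 of 90 were called beside 5% of 16257 genes, with 10 at an unadjusted p under 0.05. The smallest adjusted p was that of Uqcrfs1 (0.080). DESeq2 called 5 of 92 genes, or 5.43%, beside 8.55% of all 20207 genes. The null-to-WT ratio was higher in lung than in liver for Uqcrfs1, Ndufa6, Cox7a2l and Sdhb and lower for Atp5g1. With edgeR a different response in the 2 tissues was not shown for any of these genes.

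Other genes of the pathway were counted from lists made with earlier results known. The shares of all genes to set beside them are 13.4% lower and 13.5% higher in null liver, and 19% lower and 18% higher in null lung without null lung 1. With all 3 null lungs no gene of these lists was called in lung. Of 38 assembly factors outside the naming rule, 13 fell in null liver and none rose (median -0.29), and 16 fell and none rose in null lung without null lung 1 (median -0.42). Sdhaf1, which inserts iron-sulfur clusters into complex II, fell from 25.2, 25.3 and 25.4 CPM in WT livers to 9.82, 10.7 and 8.71 CPM in null livers (-1.37 ± 0.12, adjusted p = 0.0020) and by 0.64 ± 0.13 in lung. Taco1, which activates translation of a complex IV subunit, fell by 1.17 ± 0.18 in liver and 1.10 ± 0.27 in lung. The low-level complex III factor Lyrm7 fell by 1.09 ± 0.29 and 1.17 ± 0.31. In null lung 1 these 3 genes stood at 12.6, 11.6 and 3.36 CPM, of which the last 2 exceed every WT lung.

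Mitochondrial ribosomal proteins had 23 of 77 lower and none higher in null liver (median -0.25), and 20 lower and 2 higher in null lung without null lung 1 (median -0.17). Cytosolic ribosomal proteins, by contrast, had 54 of 82 genes higher and none lower in that lung comparison (median 0.39), and 2 of 82 lower in liver. Of 13 citric acid cycle genes, 3 fell in null liver and 3 in null lung without null lung 1, and none rose. This is 23.1% in each, where 13.4% and 19% of all genes fell. The 3 in lung were Ogdh, Idh3a and Suclg1. In null lung 1 they stood at 210, 243 and 163 CPM, above every WT lung (at most 154, 56.8 and 99.0 CPM). Between WT tissues, where 37.2% of all genes were called higher in liver, 11 of 13 citric acid cycle genes, 71 of 77 mitochondrial ribosomal proteins and 33 of 38 assembly factors were higher in liver, with medians of 1.33, 0.87 and 0.80.

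Regulators of mitochondrial biogenesis moved in both directions. Ppargc1b, a coactivator of respiratory chain genes, was at 5.96, 3.65 and 6.10 CPM in WT livers and 19.5, 18.9 and 28.2 CPM in null livers (2.09 ± 0.25, adjusted p = 0.0030). Its relative Ppargc1a was at 9.37, 13.4 and 12.7 CPM in WT lungs and 42.9 and 29.9 CPM in null lungs 2 and 3, with 73.7 CPM in null lung 1 (1.61 ± 0.20, adjusted p = 0.0017), and at 0.59 ± 0.18 in liver, where it was not called (adjusted p = 0.050). Esrra, the nuclear receptor these coactivators bind, fell in both tissues, by 1.05 ± 0.16 in liver and 0.64 ± 0.16 in lung without null lung 1. It stood at 26.9 CPM in null lung 1, above the WT lungs at 23.4, 19.0 and 20.6 CPM, and with all 3 null lungs it was at -0.19 ± 0.34 (adjusted p = 0.75). In all, 4 of 14 regulators rose and 2 fell in null liver, and 7 of 15 rose and 4 fell in null lung without null lung 1. Transcripts encoded in the mitochondrial genome are not analysed here.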

How the data were processed

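Poly(A) RNA of 12 newborn liver and lung samples was sequenced as stranded paired reads of 75 bases. The authors deposited whole-number counts of reads per gene for each sample. The submitters' processing notes name FastQC, STAR 2.5.2a, DESeq2 and mm10. The counting program, its strand setting and the gene annotation are not given in the sources used here. In the files, 27 gene names had been turned into dates, none of them a respiratory chain gene.

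Groups were taken from the labels. Each comparison was fitted on its own samples with edgeR 4.0.16 (R 4.3.3), using filterByExpr, TMM scaling, the quasi-likelihood test and Benjamini-Hochberg adjustment over all genes tested, and calls needed an adjusted p below 0.05 as well as a fold of 1.2 or more. SE is the log2 fold change divided by the root of the F statistic. The code was tested on simulated data. Transcript length and GC came from GENCODE M21 (GRCm38), and their trends were removed with lowess (span 0.3). A count of 0 allows up to 3 counts. Opposite-strand genes overlap 29 of the 93 genes, and reads of such pairs may not be told apart. The alternatives were DESeq2 1.42.0, other scalings and filters, removed trends, a replicate block, a fit of all 12 libraries and leaving out each library.

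The genes and lists were chosen with earlier results of these data known. Named genes are Man1a2, core subunits, isoform pairs and, in each comparison, up to 5 called genes with the largest rise and 5 with the largest fall. Ndufa6, Ndufc2, Atp5g1, Atp5g2 and Atp5g3 were added after their values were seen. The labels do not say that the samples of a group came from separate litters, so p-values measure the spread between these samples. Deviations of same-numbered libraries correlated at 0.111 to 0.169 between WT tissues and at 0.329 to 0.415 between null tissues. For differently numbered libraries the values were -0.130 to -0.0209 between WT tissues and -0.391 to 0.211 between null tissues. Between genotypes same-numbered libraries correlated at -0.0272 to 0.123 in liver and -0.101 to 0.112 in lung, which overlaps the range of the same-numbered WT tissues. Differently numbered ones correlated there at -0.0580 to 0.0841 and -0.136 to 0.184. The 0.415 was that of null liver 1 and null lung 1, both high in muscle markers. The labels state no pairing, the main fits used none, and whether the numbers pair the tissues was not settled.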

Additional observations from a re-analysis of the deposited data

How the results depend on the processing

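The tissue difference kept its direction, with 84 to 86 genes called when 1 library was left out, and Cox7a2l was -0.65 on library totals. The 4 liver calls became 7 with DESeq2, 9 with upper-quartile factors, 2 with a minimum of 1 count, 2 with the length trend removed (also with the longest transcripts), 2 with GC and length removed, 0 in the fit of all 12 libraries, and 1 to 3 when 1 library was left out. In liver these were 7.69% of members with DESeq2, 10.2% with upper-quartile factors and 2.27% with length removed. Of all genes, 23.7%, 28.6% and 26.8% were called in those 3 fits. The 0 lung calls became 7 with DESeq2, 9 in the fit of all 12 libraries and 0 to 22 when 1 library was left out, the 22 being without null lung 1. The 7 are 7.69% of members, where DESeq2 called 11.8% of all genes in lung.

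Without null lung 1 the lung count was 24 with DESeq2, 21 with upper-quartile factors, 21 with length, 21 with GC and 23 with both trends removed, and 25 on library totals. With DESeq2 this was 26.4% of members and 32.8% of all genes. With both trends removed it was 25.6% and 38.3%, and on library totals 27.8% and 38.5%. The next counts are from the TMM fit. There 45 of 90 genes were negative, against 3 with all 6 libraries. Among the called falls, Ndufa12, Atp5g1, Ndufaf5, Ndufs8, Sdha and Sdhc had been positive; over the fits without 1 library the highest values of the last 4 were 1.03 (Ndufaf5), 0.47 (Ndufs8), 0.76 (Sdha) and 0.57 (Sdhc). Ndufaf5 was -0.60, with DESeq2 -0.57, upper-quartile factors -0.67, GC removed -0.60, both trends removed -0.55 and library totals -0.75. Ndufs8 was -0.51, with DESeq2 -0.49, upper-quartile factors -0.59, length removed -0.45, both removed -0.41 and library totals -0.67. Sdha was -0.43, with DESeq2 -0.41, upper-quartile factors -0.51, length removed -0.36, GC removed -0.42, both removed -0.38 and library totals -0.58. Sdhc was -0.40, with DESeq2 -0.38, upper-quartile factors -0.48, length removed -0.34, GC removed -0.39, both removed -0.35 and library totals -0.55. Apart from the library left out, the cause of these changes was not tested. In the interaction DESeq2 called 1 gene, and 5 without null lung 1, beside 2.99% and 8.55% of all genes.

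With the replicate number as a block, 85 genes were called between tissues, 3 between genotypes in liver, 0 in lung and 0 in the interaction. With GC and length removed as well, these counts were 79, 3, 0 and 0.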
